A study of Mus musculus with 6 samples.

Results

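A set of 33 known hypoxia target genes outside glycolysis was followed in hearts of mouse embryos with and without Arid3b, a transcription regulator of the ARID family that binds AT-rich DNA. The genes were chosen by name, as known targets and not by a measured threshold, but with earlier results of these data known. Their shares below are therefore a description beside all genes and not an independent test. On the arrays the genes were found by the RefSeq accessions of the probes. Of the 33 genes, 32 had a probe and 30 were measured, among 21800 genes tested in all. All 30 were well above background on all 6 arrays. Dnajb5 had no probe by its accession, and the probes of Lox and Mxi1 were too dim to be kept.

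Expression was measured on 6 single-colour Agilent arrays in hearts taken at embryonic day 9.5. Each heart came with the pharyngeal mesoderm and endoderm lying below the heart tube, so a value is a mixture of several tissues. Of the 6 samples, 3 were pools of wild-type embryos and 3 were pools of Arid3b-null embryos, with 4 embryos to a pool. The labels give no strain, sex or other allele, and do not describe how the null allele was made. Samples of this kind cannot tell a change in the number of cells of a type from a change in RNA per cell.

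Cells sense oxygen through the hypoxia-inducible factors, or HIFs. In normal oxygen, prolyl hydroxylases mark the HIF alpha subunits for destruction through the von Hippel-Lindau protein. In low oxygen the alpha subunits persist, pair with Arnt and bind the core sequence ACGTG or GCGTG near target genes. Besides the glycolytic enzymes, known targets include proteins that control pH, mitochondria, collagen processing, protein folding, glycogen and signalling. The early heart develops in low oxygen, and HIF signalling is needed for its growth.

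On the arrays, 43020 non-control spots were read per array, of which 27136 to 31039 were well above background, and none was saturated. The Arid3b probe with the brightest signal read 2.91, 3.40 and 3.69 in wild-type pools 1 to 3 and 1.08, 0.52 and 0.45 in null pools 1 to 3. All such values are log2 signal relative to the 75th percentile of the same array, so that 0 is the level of a fairly bright spot and each unit is a doubling of the signal. Arid3b fell by 2.65 (SE 0.26, limma adjusted p = 0.00194, n = 3 pools per group), and every null pool was below every wild-type pool. The arrays lay on 3 slides, each carrying 1 wild-type and 1 null pool with equal numbers. The wild-type array had the same place on each slide, so place and genotype cannot be told apart. Markers of the cardiomyocyte were bright in all pools, and 0 of its 10 measured markers were called changed by limma at an adjusted p under 0.05. With only 3 pools per group the number of arrays limits the precision, and p-values measure the spread between pools.

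Of the 30 measured hypoxia targets, 19 (63.3%) rose in null hearts and 0 fell, by limma with adjustment over all genes tested. Among all 21800 genes tested, 6.64% (1448 genes) were called higher and 3.81% (831 genes) were called lower, a split that depended on the scaling, with 1105 of 2504 calls higher when arrays were scaled to their medians. All 19 were called and more than 1 log2 unit higher, as were 4.05% of all genes tested. The 30 genes had a median log2 change of 1.23, against 0.03 over all genes, and 29 of the 30 had a fitted change above 0. The 19 called changes ran from 1.04 (Higd1a) to 5.0 (Ndufa4l2), with standard errors of 0.15 to 0.35. The other 11 genes had changes of -0.36 to 0.67 and adjusted p-values of 0.0751 to 0.954. In 22 of the 30 genes (73.3%) the null pools did not overlap the wild-type pools, each time with the null pools higher, while 18.1% of all genes tested had that pattern. Of the 10 genes with the highest rises on the array, 3 were in the set (Ndufa4l2, Car9 and Ndrg1), and 6 were among the first 100. The 3 null pools were alike, with median deviations from the wild-type mean of 1.23, 1.31 and 1.33 over the 30 genes. Within slides 1, 2 and 3 the median difference was 1.4, 1.30 and 1.43. Each of the 19 called genes was higher in the null pool of every slide, which follows from their groups not overlapping.

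**Figure D1:**
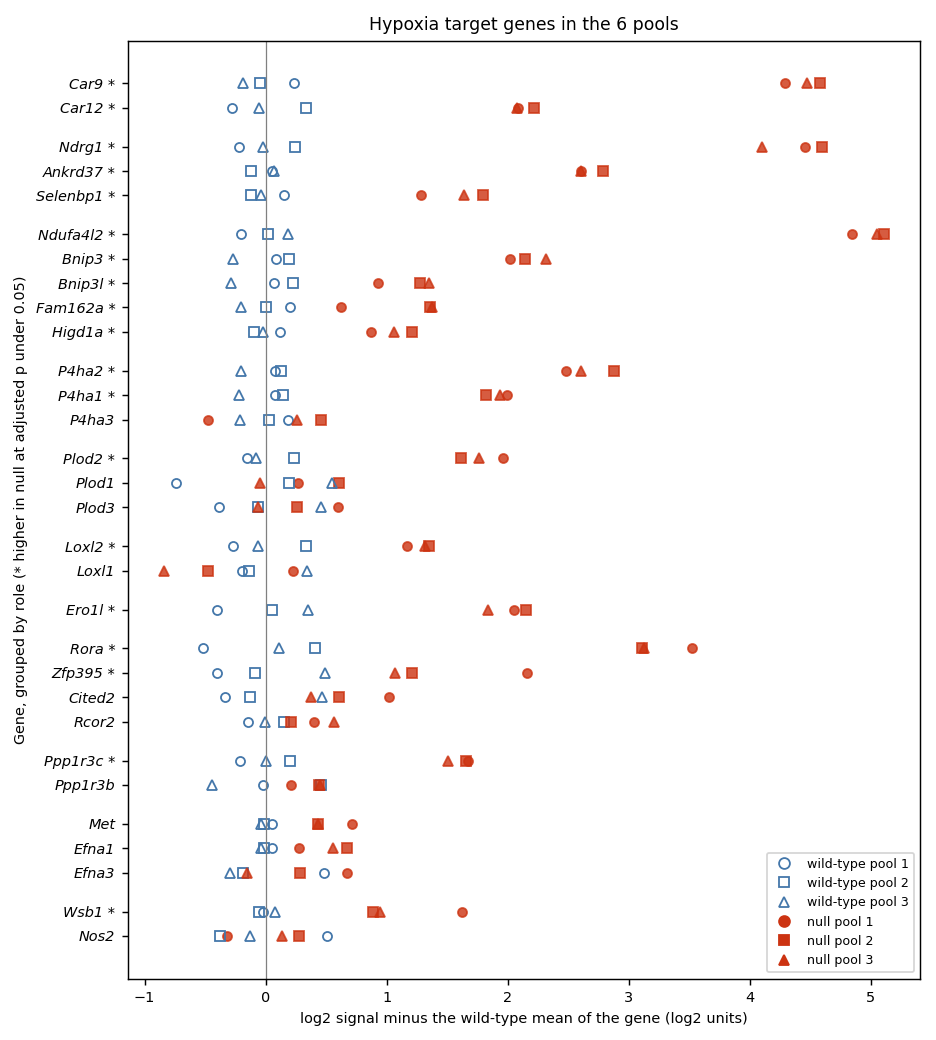
Log2 signal of each of the 30 measured hypoxia targets in the 6 pools, as the deviation from the wild-type mean of that gene (x axis, log2 units), with genes grouped by role on the y axis and each point 1 pool. In the 19 genes marked with a star all 3 null pools lie to the right of all 3 wild-type pools, from Higd1a (change of 1.04) to Ndufa4l2 (5.0).

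**Figure D2:**
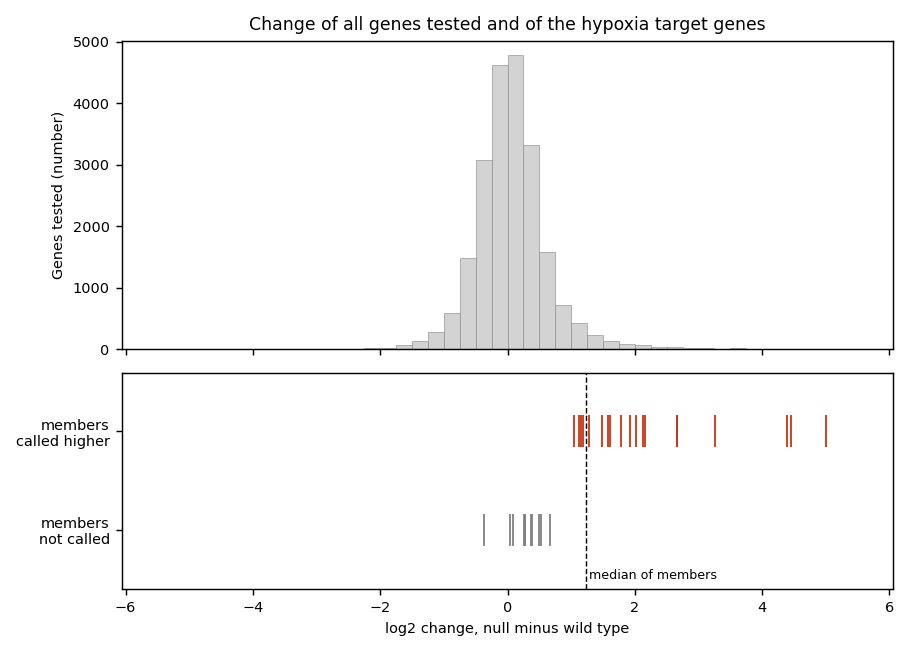
The upper panel counts all 21800 genes tested by log2 change (null minus wild type, in bins on the x axis). In the lower panel each tick is 1 of the 30 hypoxia targets, placed at its own change. The 19 called genes lie at 1.04 or more, the 11 others between -0.36 and 0.67, and the dashed line marks their median of 1.23.

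The promoters of 6 of the genes are shown because they hold the HIF core in differing number, from genes that rose and from 1 relative that was not called. The sequences are from RefSeq, build GRCm38.p6, and cover the 250 bases before the transcription start, written 5′ to 3′ along the gene. Capitals mark ACGTG or GCGTG and, for the other strand, CACGT or CACGC. The positions are chr4:43506776-43507025 on the plus strand for Car9, chr8:45999851-46000100 on the minus strand for Ankrd37 and chr7:138909507-138909756 on the minus strand for Bnip3. For the collagen prolyl hydroxylases they are chr10:59323046-59323295 for P4ha1, chr11:54100674-54100923 for P4ha2 and chr7:100285270-100285519 for P4ha3, all on the plus strand.
Car9: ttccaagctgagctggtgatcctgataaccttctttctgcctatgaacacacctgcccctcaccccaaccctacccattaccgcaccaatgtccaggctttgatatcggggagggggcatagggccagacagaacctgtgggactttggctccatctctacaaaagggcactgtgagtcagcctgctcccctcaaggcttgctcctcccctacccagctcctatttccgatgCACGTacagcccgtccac
Ankrd37: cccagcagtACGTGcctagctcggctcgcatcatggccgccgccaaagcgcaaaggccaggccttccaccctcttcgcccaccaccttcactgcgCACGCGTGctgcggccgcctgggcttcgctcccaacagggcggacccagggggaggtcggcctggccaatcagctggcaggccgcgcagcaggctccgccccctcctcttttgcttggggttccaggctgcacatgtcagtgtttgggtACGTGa
Bnip3: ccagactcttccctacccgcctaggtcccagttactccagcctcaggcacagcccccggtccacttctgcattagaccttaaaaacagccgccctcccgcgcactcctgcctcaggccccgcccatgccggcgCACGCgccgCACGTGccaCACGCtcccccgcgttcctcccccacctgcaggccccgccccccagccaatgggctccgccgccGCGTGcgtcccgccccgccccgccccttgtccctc
P4ha1: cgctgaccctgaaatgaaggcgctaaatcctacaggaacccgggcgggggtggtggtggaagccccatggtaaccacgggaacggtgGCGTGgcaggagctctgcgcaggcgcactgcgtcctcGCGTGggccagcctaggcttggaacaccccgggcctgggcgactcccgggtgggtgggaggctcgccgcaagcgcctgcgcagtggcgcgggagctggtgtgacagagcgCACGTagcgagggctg
P4ha2: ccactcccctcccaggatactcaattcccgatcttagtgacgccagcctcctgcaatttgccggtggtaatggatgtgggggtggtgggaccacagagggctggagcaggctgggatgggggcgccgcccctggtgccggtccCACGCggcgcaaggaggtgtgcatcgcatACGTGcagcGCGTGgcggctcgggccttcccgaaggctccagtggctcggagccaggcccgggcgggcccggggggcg
P4ha3: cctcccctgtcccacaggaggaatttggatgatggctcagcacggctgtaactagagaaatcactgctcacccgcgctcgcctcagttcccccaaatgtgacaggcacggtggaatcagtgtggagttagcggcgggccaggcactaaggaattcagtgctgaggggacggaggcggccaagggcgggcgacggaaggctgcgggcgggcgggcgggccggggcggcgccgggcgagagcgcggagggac

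The Car9 window held the core at 1 place, starting 18 bases before the transcription start. Ankrd37 had 4 places, at 241, 155, 152 and 6 bases before the start, and the middle pair overlap. Bnip3 also had 4, at 117, 108, 99 and 35 bases, and the one at 108 is the palindrome CACGTG, which reads as the core on both strands, was counted once and is also an E-box. P4ha1 and P4ha2 had 3 each, and the P4ha3 window had none. The Car12 window had none either. Among the other genes not called, Plod3 had 4 places, Rcor2 had 3, Met had 2, and Cited2 and Plod1 had 1 each. The windows of Efna3 had 3 and 2, and those of Efna1 had 0. The table had windows for 23 of the 33 genes. Of the 13 genes called higher that had an entry, 12 (92.3%) held the core on either strand, against 6 of 8 (75%) of the measured genes that were not called. Among all 27025 genes with an entry, 41.5% held it. Windows of the called genes had a median GC content of 66.0%, those of the uncalled genes 65.8% and all windows 52.4%, so that the share of motifs and the GC content differ together. A match of letters is a description and does not show that a factor binds there.

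Carbonic anhydrases turn carbon dioxide and water into bicarbonate and protons, and the membrane-bound Car9 and Car12 do so at the cell surface. Car9 read -3.37, -3.66 and -3.80 in wild-type pools 1 to 3 and 0.68, 0.97 and 0.86 in null pools 1 to 3. Its wild-type pools were all dim and its null pools all close together, with no overlap. Car9 rose by 4.45 (SE 0.18), a 21.8-fold increase (limma adjusted p = 0.000154). Car12 read -0.56, 0.05 and -0.34 in the wild-type pools and 1.80, 1.93 and 1.80 in the null pools. It rose by 2.13 (SE 0.19), or 4.36-fold, with an adjusted p of 0.00145 by limma. Set against each other within each array, the Car9 change was 2.32 log2 units higher than that of Car12 (SE 0.27), and the pools of the 2 groups did not overlap in this difference.

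Ndrg1 is a cytoplasmic protein induced by many kinds of cell stress. Ndrg1 read -1.32, -0.85 and -1.11 in the wild-type pools and 3.35, 3.50 and 3.01 in the null pools. All 3 null pools were far above the wild-type pools, and the gene rose 20.9-fold (log2 change 4.38, SE 0.20, limma adjusted p = 0.000177). Ankrd37, an ankyrin repeat protein known as a HIF target, read -0.39, -0.56 and -0.38 against 2.16, 2.34 and 2.16. It rose by 2.67 (SE 0.15, 6.34-fold, limma adjusted p = 0.000301), with the smallest standard error of the 19 called genes. Selenbp1, an enzyme that oxidises methanethiol, read 0.16, -0.11 and -0.02 in wild-type and 1.30, 1.80 and 1.65 in null pools. The rise was 1.57 (SE 0.19, 2.97-fold, limma adjusted p = 0.00383), and null pool 1 was the lowest of the null pools. With null pools 2 and 3 both left out Selenbp1 was no longer called (change 1.29, limma adjusted p = 0.0772).

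All 5 measured genes for mitochondrial proteins rose. Ndufa4l2 encodes a relative of the cytochrome oxidase subunit Ndufa4 and is known to lower respiration in hypoxic cells. It read -1.59, -1.36 and -1.20 in the wild-type pools and 3.46, 3.73 and 3.67 in the null pools. This was the highest fitted rise of all 21800 genes tested (5.0, SE 0.17, 32.0-fold, limma adjusted p = 0.000137). Its relative Ndufa4 had a change of -0.27 (SE 0.28, limma adjusted p = 0.584). Bnip3 and Bnip3l sit in the outer mitochondrial membrane and mark mitochondria for mitophagy, their removal by autophagy. Bnip3 read 3.99, 4.09 and 3.63 against 5.92, 6.05 and 6.22, with no overlap. It rose by 2.16 (SE 0.18, 4.46-fold, limma adjusted p = 0.00115), and its 3 probes gave changes of 2.04 to 2.41.

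Bnip3l read 3.66, 3.81 and 3.30 in wild-type and 4.52, 4.87 and 4.94 in null pools, again without overlap. Its rise was smaller, 1.18 (SE 0.20, 2.27-fold, limma adjusted p = 0.0134), with 1.07 to 1.20 over its 4 probes. The Bnip3 change was 0.98 higher than the Bnip3l change within arrays (SE 0.07). Higd1a, an inner membrane protein that associates with the respiratory chain, read 3.47, 3.25 and 3.33 against 4.22, 4.56 and 4.41. It rose by 1.04 (SE 0.16, 2.06-fold, limma adjusted p = 0.00988). Fam162a, a mitochondrial protein tied to cell death in hypoxia, read 4.47, 4.27 and 4.07 against 4.89, 5.63 and 5.64. It rose by 1.12 (SE 0.24, 2.17-fold, limma adjusted p = 0.0307), and null pool 1 lay nearest to the wild-type pools. These 3 calls were lost with the slide as a block, at limma adjusted p-values of 0.059 for Bnip3l, 0.0717 for Higd1a and 0.0943 for Fam162a. The Bnip3l call was also lost without null pool 2 (adjusted p = 0.0586), and the Fam162a call when pool 2 or 3 of the wild type (0.102 and 0.0953) or of the nulls (0.106 and 0.0945) was left out or dim probes were kept (0.0762), all by limma. Without null pools 2 and 3 together, the change was 0.93 for Bnip3l, 0.87 for Higd1a and 0.63 for Fam162a, and limma called none of the 3 (adjusted p = 0.195, 0.18 and 0.333).

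Collagen prolyl 4-hydroxylase is a complex whose catalytic alpha subunit is P4ha1, P4ha2 or P4ha3, and its product hydroxyproline makes the collagen triple helix stable. P4ha1 read -0.64, -0.58 and -0.94 in the wild-type pools and 1.28, 1.10 and 1.22 in the null pools. It rose by 1.92 (SE 0.17, 3.78-fold, limma adjusted p = 0.00125), and its other probe gave 1.84. P4ha2 read 0.35, 0.40 and 0.07 against 2.75, 3.15 and 2.87. It rose by 2.65 (SE 0.18, 6.3-fold, limma adjusted p = 0.000522). P4ha3 read -2.82, -2.97 and -3.22 against -3.48, -2.55 and -2.74. Its null pools lay on both sides of the wild-type pools, and its change was 0.08 (SE 0.26, limma adjusted p = 0.883), with -0.11 from its other probe. The P4ha3 change turned to -0.024 under quantile normalization. Within arrays the P4ha1 change was 1.84 higher than that of P4ha3 (SE 0.34) and the P4ha2 change 2.57 higher (SE 0.20).

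Lysyl hydroxylases of the Plod family prepare lysines of collagen for cross-links. Plod2, which acts on the telopeptides, read -0.18, 0.20 and -0.11 in the wild-type pools and 1.93, 1.59 and 1.73 in the null pools. It rose by 1.78 (SE 0.18, 3.43-fold, limma adjusted p = 0.00207). Plod1 read -2.25, -1.31 and -0.96 against -1.24, -0.91 and -1.55, with wild-type pool 1 lowest. Its change was 0.27 (SE 0.34, limma adjusted p = 0.661), 0.68 by its other probe and -0.10 without wild-type pool 1. Plod3 read 1.6, 1.92 and 2.44 against 2.59, 2.25 and 1.92, for a change of 0.27 (SE 0.27, limma adjusted p = 0.575). The groups overlapped in Plod1 and Plod3 and were apart in Plod2. The change of Plod2 was 1.51 higher within arrays than that of Plod1 (SE 0.43) and 1.51 higher than that of Plod3 (SE 0.31).

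Lysyl oxidases then form the cross-links outside the cell. Loxl2 read 4.22, 4.82 and 4.43 in wild-type and 5.66, 5.84 and 5.81 in null pools. It rose by 1.28 (SE 0.19, 2.42-fold, limma adjusted p = 0.00882), with 1.28 to 1.5 over 3 probes. The Loxl2 call was lost without null pools 2 and 3 together (1.17, limma adjusted p = 0.133). Loxl1 read -0.24, -0.18 and 0.30 against 0.18, -0.51 and -0.88, and was the only measured gene of the set with a fitted change below 0 (-0.36, SE 0.30, limma adjusted p = 0.478). Its other probe gave -0.73, and without null pools 2 and 3 the change was 0.22. The 2 groups overlapped in Loxl1 and did not in Loxl2, and within arrays the Loxl2 change was 1.64 higher (SE 0.44). Of the 20 collagens and collagen partners measured, 1 was called higher (P3h2, another prolyl hydroxylase, 0.65, SE 0.17, limma adjusted p = 0.0493) and 1 lower (Col2a1, the cartilage collagen, -0.83, SE 0.18, adjusted p = 0.0321). Their median change was 0.15, and 0 of the 20 were called with the slide as a block or in the authors' deposited value table. Both calls ended when pool 2 or pool 3 of either group was left out, and that of P3h2 also without null pool 1.

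Ero1l, named Ero1a in current annotation, is the oxidase that passes electrons from protein disulfide isomerase to oxygen in the endoplasmic reticulum. It read -3.57, -3.11 and -2.82 in the wild-type pools and -1.12, -1.02 and -1.33 in the null pools. Every null pool was above every wild-type pool, and the gene rose by 2.01 (SE 0.22, 4.03-fold, limma adjusted p = 0.00301).

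Among the 4 measured regulators of transcription, 2 rose. Rora, a nuclear receptor, read -4.04, -3.11 and -3.42 in wild-type and -0.0046, -0.41 and -0.40 in null pools. It rose by 3.25 (SE 0.26, 9.52-fold, limma adjusted p = 0.000976). Zfp395, a zinc finger protein, read -1.6, -1.29 and -0.70 against 0.97, 0.0095 and -0.13. Null pool 1 was the highest of the null pools here, and the rise of 1.48 (SE 0.35, 2.79-fold, limma adjusted p = 0.0385) had the highest adjusted p of the 19. Its 4 probes gave 1.09 to 1.48. The call was lost with the slide as a block (limma adjusted p = 0.0849), without any 1 of the 6 pools (0.0515 to 0.127), under scaling to the array median (0.0528), without the filter on dim probes (0.0875) and with the mean of its probes (0.0623). Cited2 competes with HIF alpha subunits for the coactivators CBP and p300 and is itself a HIF target. It read 2.70, 2.91 and 3.50 against 4.06, 3.64 and 3.41, so the groups overlapped, and its change was 0.67 (SE 0.26, limma adjusted p = 0.156). Its other probe gave 0.66, and with the mean of both probes it was called (0.66, limma adjusted p = 0.036). Rcor2, a corepressor of the LSD1 complex, read 3.95, 4.25 and 4.09 against 4.50, 4.30 and 4.67. The null pools were higher without overlap, but the change of 0.39 did not pass (SE 0.17, limma adjusted p = 0.193).

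Ppp1r3c and Ppp1r3b bring protein phosphatase 1 to glycogen, where it favours glycogen synthesis. Ppp1r3c read -0.0042, 0.41 and 0.21 in the wild-type pools and 1.88, 1.86 and 1.71 in the null pools. It rose by 1.61 (SE 0.17, 3.05-fold, limma adjusted p = 0.00236). Ppp1r3b read 2.47, 2.95 and 2.05 against 2.71, 2.93 and 2.94, with the groups overlapping and a change of 0.37 (SE 0.24, limma adjusted p = 0.381). Within arrays the Ppp1r3c change was 1.24 higher (SE 0.25).

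None of the 3 genes for surface signalling was called. Met, the receptor of hepatocyte growth factor, read -3.66, -3.73 and -3.74 against -2.99, -3.28 and -3.27, for a change of 0.53 (SE 0.16, limma adjusted p = 0.0751). Efna1, a membrane-bound ligand of Eph receptors, read 1.35, 1.28 and 1.25 against 1.57, 1.97 and 1.85, for a change of 0.50 (SE 0.16, limma adjusted p = 0.0999). In both genes the groups did not overlap, and Efna1 was called when arrays were weighted (0.60, limma adjusted p = 0.0288). Efna3, another such ligand, read -1.58, -2.25 and -2.36 against -1.39, -1.78 and -2.22, with overlap and a change of 0.27 (SE 0.29, limma adjusted p = 0.596).

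Wsb1 is the substrate-binding part of a ubiquitin ligase. It read -1.32, -1.35 and -1.22 in wild-type and 0.33, -0.41 and -0.35 in null pools, and rose by 1.15 (SE 0.22, 2.22-fold, limma adjusted p = 0.0213). The Wsb1 call was lost with the slide as a block (limma adjusted p = 0.0653), without the filter on dim probes (0.0574) and without wild-type pool 1 (0.053), 2 (0.0835) or 3 (0.061). Nos2, the inducible nitric oxide synthase, read -1.46, -2.34 and -2.09 against -2.28, -1.68 and -1.82. Its groups overlapped and its change was 0.034 (SE 0.27, limma adjusted p = 0.954), which turned to -0.051 under quantile normalization.

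Close relatives within the families were thus compared in 15 pairs, each by the difference of their log2 signals within an array. In 11 of the 15 pairs the null and wild-type pools did not overlap in this difference. The first gene of each of the 11 was itself called higher in these arrays, so the separation follows in part from those calls. The rising relatives Ndrg2 (1.80) and Ppp1r3g (1.09) were not among the pairs. The exact permutation test, two-sided, gave p = 0.1 in each of the 11, which is the smallest p that 3 against 3 pools allow, and 0.136 after adjustment over the 15 pairs. So none of the pairs could pass at 0.05. The Ndrg1 change was 4.45 higher than that of Ndrg3 (SE 0.24), and the Ndufa4l2 change 5.27 higher than that of Ndufa4 (SE 0.37). The Higd1a change exceeded that of Higd2a by 1.13 (SE 0.09). In the other 4 pairs the groups overlapped, with differences in change of 0.23 for Efna1 over Efna3 (SE 0.39), 0.41 for Cited2 over Cited1 (SE 0.40), 0.34 for Rcor2 over Rcor1 (SE 0.15) and 1.08 for Wsb1 over Wsb2 (SE 0.78). Exact permutation p-values for these were 0.5, 0.4, 0.2 and 0.3.

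**Figure D3:**
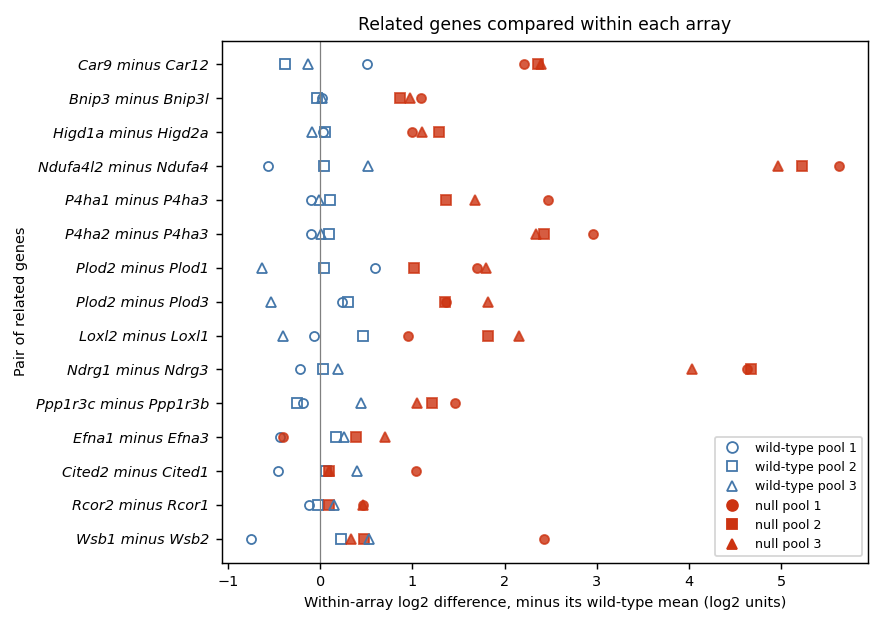
Difference in log2 signal between 2 related genes within each array, minus its wild-type mean (x axis, log2 units), for the 15 pairs on the y axis, each point 1 pool. The null pools lie apart from the wild-type pools in 11 pairs, the widest being Ndufa4l2 minus Ndufa4 at 5.27, and overlap them in the last 4.

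Among 39 measured paralogues of the set, 5 were called higher and 1 lower, with a median change of 0.05. Ndrg2, a relative of Ndrg1, rose by 1.80 (SE 0.17, limma adjusted p = 0.00149) and was the only one called with the slide as a block (0.0122). Car11, an inactive relative of the carbonic anhydrases, rose by 1.02 (SE 0.19, limma adjusted p = 0.0177). Ppp1r3g, another glycogen-targeting subunit, rose by 1.09 (SE 0.19, limma adjusted p = 0.0136), and Mnt, a relative of Mxi1, by 0.65 (SE 0.15, adjusted p = 0.039). Car10 was called at 1.24 (SE 0.30, limma adjusted p = 0.042), although only 1 wild-type and 2 null arrays had it above background. Ppp1r3a, the muscle form, was called at -1.11 (SE 0.18, limma adjusted p = 0.0104), with 1 null array above background. Without wild-type pool 1, 2 or 3 the count called higher was 3, 2 and 3, and without null pool 2 or 3 it was 1 and 3.

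The HIF pathway itself was measured through 10 genes, with 3 called higher, 1 lower and a median change of 0.25. Egln3, an oxygen-sensing prolyl hydroxylase and HIF target, rose by 2.98 (SE 0.17, 7.86-fold, limma adjusted p = 0.000301), and limma also called Egln1 (1.23, SE 0.21, adjusted p = 0.0133) and Hif3a (0.88, SE 0.16, adjusted p = 0.0159). Hif1a, the oxygen-regulated subunit, fell by 0.86 at the RNA level (SE 0.18, limma adjusted p = 0.0275). Only Egln3 was called with the slide as a block. The count called higher was also 1 without null pool 2, and the Hif1a call was lost with dim probes kept and when pool 1 or 2 of the wild type, or pool 2 or 3 of the nulls, was left out. Of 21 glycolytic HIF targets 13 were called higher and 0 lower, with a median change of 0.88 and the highest rise in Eno2, a neuronal enolase (4.14, SE 0.20, limma adjusted p = 0.0002). That count was 6 with the slide as a block, 7 without null pool 2 and 8 without null pool 3. Of 13 other HIF targets 10 were called higher and 0 lower, with a median of 2.06. The median change was thus higher in the other HIF targets than in the 30 non-glycolytic genes described here (1.23), and lower in the glycolytic ones, and no test was made of these differences.

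Markers of other cell types moved between the groups too. All 8 platelet and megakaryocyte markers were called higher (median 2.86), and their summed signal, relative to the 75th percentile, was 3.06 to 5.95 in wild-type and 39.9 to 65.3 in null pools. Of 7 measured visceral endoderm and liver markers of 10 listed, 3 were called higher (Afp, Rbp4 and Hnf4a), with sums of 0.625 to 0.985 and 3.25 to 4.45. Alb, Apoa1 and Apoa4 were too dim to be kept. The null sums rested mostly on Afp and Rbp4, with null means of 0.48 and 0.93. Hnf4a was dim, with a wild-type mean of -6.61 and 2 wild-type arrays above background. Of 10 erythroid markers 1 was called higher (Gata1), with sums of 282 to 592 and 766 to 1199. Of 10 pharyngeal endoderm markers, Sox17 and Krt18 were called higher and Nkx2-1 lower. Their median change was -0.05, with 6 of the 10 fitted below 0, among them Foxa1 (-0.37) and Foxa2 (-0.54), neither called. The sums of 42.4 to 45.9 and 80.3 to 93.2 rested mostly on Krt18, the brightest marker, with means of 5.07 and 6.16. Of 6 macrophage markers 1 was called higher (Fcer1g), with sums of 1.05 to 3.28 and 1.55 to 4.84. Of 6 measured neural markers, 4 were called lower (Tubb3, Dcx, Neurod1 and Nkx6-1), with sums of 1.16 to 1.69 and 0.521 to 0.619. Neurod1 was above background on 0 null arrays and passed the filter only through the wild type, and 3 neural markers were called lower among probes above background on all 6 arrays. With the slide as a block the calls of Gata1 (limma adjusted p = 0.0644), Krt18 (0.0641), Nkx2-1 (0.148), Tubb3 (0.096) and Dcx (0.0663) were lost. The Gata1 call was also lost without wild-type pool 2 or 3 or without the second null pool, and the Nkx2-1 call when any pool but the first null pool was left out. The neural count was 2 when pool 2 or 3 of either group was left out. The part of these cells in the rises of the hypoxia targets was not tested.

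Of the 7 measured trophoblast markers of 12 listed, 0 were called by limma. The sum of 6 of them was 31.7 in null pool 3 against 2.07 and 2.73 in null pools 1 and 2 and 2.23 to 4.40 in the wild-type pools, with Gcm1 left out because its spot was an outlier in null pool 1. Prl3d1, the placental lactogen of giant cells, read -3.20, -0.97 and 4.78 in null pools 1 to 3, against a wild-type mean of -3.16. Ctsq, Ctsj, Tpbpa and Psg17 were too dim to be kept, and Prl2c2 had no probe by its accession. In null pool 1, Prl3d1 was at the wild-type level and the median deviation of the hypoxia targets was 1.23. That pool also had raised platelet and visceral endoderm sums, 39.9 and 4.45, against at most 5.95 and 0.985 in wild-type pools. With null pools 2 and 3 both left out, only null pool 1 remains, so the median change of the targets is the same 1.23 by construction. The part of trophoblast cells in the rises was not tested. Cardiomyocyte sums were 1588 to 1921 in wild-type and 1582 to 2020 in null pools. By limma at an adjusted p under 0.05, 0 of 8 endothelial and 0 of 7 pharyngeal mesoderm markers were called. Endothelial sums were 11.1 to 11.3 in wild-type and 12.7 to 16.1 in null pools, without overlap. Those of the pharyngeal mesoderm were 11.9 to 14.7 and 12.6 to 18.3, with overlap.

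**Figure D4:**
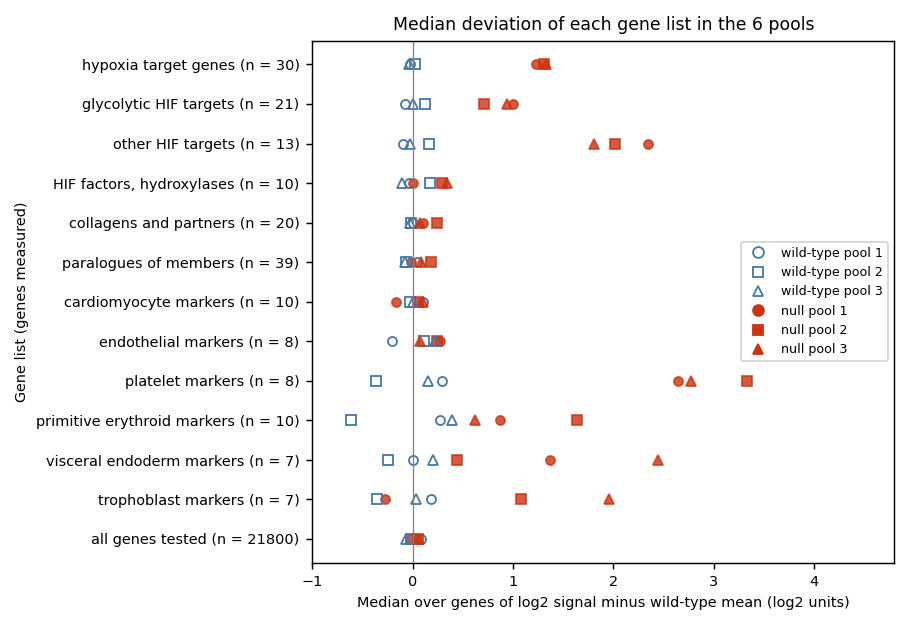
Median over the genes of each list of the log2 signal minus the wild-type mean of the gene (x axis, log2 units), with the list and its number of measured genes on the y axis and each point 1 pool. The hypoxia targets lie at 1.23, 1.31 and 1.33 in the null pools and all genes tested near 0, while platelet, erythroid, visceral endoderm and trophoblast markers are spread more widely between null pools. Trophoblast markers in null pool 1 are the median of 6 genes.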

How the data were processed

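RNA of 3 wild-type and 3 Arid3b-null heart pools was labelled with Cy3 and hybridised to single-colour arrays. Per the file headers, the deposited intensity values were written by Agilent Feature Extraction (version 10.7.3.1; array design 026655), which subtracted the background and did not scale between arrays. The same software set the deposited flags for background, saturation and outliers, per the file headers. How the authors made the log2 values of the deposited table is not stated in the sources used here, so it served only as an alternative.

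The processed intensity was put on the log2 scale, less the 75th percentile of each array. Outlier spots were left out and spots of a probe averaged. Probes well above background on at least 3 of 6 arrays were kept, a probe counting as above background unless most of its spots were not. This left 26848 of 39429. Symbols came from RefSeq accessions in RefSeq's gene list for GRCm38.p6, which named 26424 probes. Each gene was taken at its brightest kept probe, giving 21800 tested, of which 15233 had a symbol and 6567 did not. Null and wild-type pools were tested two-sided by lmFit and eBayes of limma 3.58.1 (R 4.3.3, with data.table at version 1.17.8). A call needed an adjusted p under 0.05, by Benjamini-Hochberg over the 21800. The procedure was tested on simulated data.

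All 33 genes of the set are named. Of the other lists, the called gene with the highest rise and that with the deepest fall are named, with every called paralogue, the called markers of each cell type and a few listed first. Egln1, Hif3a and Prl3d1 are named beside these. A gene that this rule takes is not reported here. The genes and lists were chosen with earlier results of these data known. Alternatives were quantile normalization, scaling to the array median, normexp with an offset of 50 on the median spot signal, array weights, a trended robust prior, dim probes kept, probes above background on all 6 arrays, outliers kept, means over probes, a replicate block by slide, the authors' values and each array left out. Leaving out null pools 2 and 3 together was chosen after seeing the data. Pools of the same number shared a slide, and their deviations from the group means correlated at -0.41, -0.09 and -0.41 across genes. With 3 pools per group these correlations cannot show that the slide had no effect. None was positive, so the comparison was made without a block, and the block by slide is given as an alternative.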

Additional observations from a re-analysis of the deposited data

Results flagged for a closer look

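Lox, the founding lysyl oxidase, was left out of the comparison because its probes were dim, but both were well above background in null pools 1 and 2 and on no wild-type array. The first probe read -7.30, -8.61 and -8.18 in the wild-type pools and -5.68, -5.39 and -6.00 in the null pools, with a null mean of -5.69. Against the lowest signal well above background on each wild-type array this null mean is 2.50-fold higher. The mean includes null pool 3, where neither probe was well above background, so this is not a firm lower limit. The other probe had a null mean of -5.87 and a wild-type mean of -8.45, and was 2.21-fold higher by the same measure. With the filter removed, Lox was called higher by limma (adjusted p = 0.0235). Both figures depend on the background correction. Mxi1, a Myc antagonist, was not well above background on any array. Its null mean of -7.82 read 0.93 above its wild-type mean. Both means lay below -7.01, the mean of the lowest signals well above background on the wild-type arrays. With the filter removed Mxi1 was not called (limma adjusted p = 0.114), so the difference is not read as a rise.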

How the results depend on the processing

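The 19 hypoxia targets called higher became 14 to 20 under 17 other settings, each left-out array counting as 1, and 0 were called lower in any of them. The same 14 genes were called in every one: Ankrd37, Bnip3, Car12, Car9, Ero1l, Loxl2, Ndrg1, Ndufa4l2, P4ha1, P4ha2, Plod2, Ppp1r3c, Rora and Selenbp1. With the slide as a replicate block 14 were called higher, against 2.47% of all genes. Loxl2 and Selenbp1 were among the calls lost without null pools 2 and 3 together. Leaving out each array gave 16 to 18 called, and a median change of 1.22 to 1.36. Scaling to the array median gave a median of 1.10 while the median of all genes moved from 0.03 to -0.11, and normexp moved it to 0.16 and keeping dim probes to 0.17.

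The count of all genes called, 2279, was less stable: 1037 without the filter, 3817 with array weights, 742 with the replicate block, 379 without null pools 2 and 3, and 833 to 1753 with each array left out. Small changes turned sign. P4ha3 was -0.024 by quantile normalization, -0.053 by median scaling, -0.015 by the mean of probes, -0.031 in the authors' table, -0.48 without null pools 2 and 3 and -0.11 to 0.36 with each array left out. Nos2 was -0.051, -0.10 and -0.062 by quantile normalization, median scaling and the authors' table, -0.32 without null pools 2 and 3 and -0.154 to 0.287 with each array left out. Plod1 ranged from -0.10 to 0.55 with each array left out, and Loxl1 was 0.22 without null pools 2 and 3. The cause was not tested. With 1 null pool left, that pool is assumed to vary like the wild-type pools. Rcor2 had no probe in the authors' table. Signal near background limits Lox, Mxi1, Car10 and Ppp1r3a. The size of the rise also depended on the background correction in Car9, Rora and Ero1l, which were dim in the wild-type pools. Under normexp the Car9 change was 3.58, against 4.45 in the main comparison, and the Rora change 2.45, against 3.25. The Ero1l change was also smaller under normexp, and these genes were still called. No called gene of the set had a larger change under normexp.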
